A study of Homo sapiens with 36 samples.

Results

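Sunitinib-resistant 786-O cells given durvalumab were compared with the same cells given avelumab, with 3 libraries on each side out of the 36 libraries of the series. All genes that passed a filter on low counts were taken, 18886 of the 45478 genes counted. 786-O is an established human line of clear cell renal cell carcinoma, and the resistant cells had been selected by the submitters over months of culture in rising sunitinib, a kinase inhibitor used against this cancer, until they grew at 4 µM. Cells of all groups used here then received their antibody for 24 h at a concentration that the labels write as 10 mg/mL. The groups are the resistant cells under durvalumab, those under avelumab and, as context, those under atezolizumab (3 libraries each, all of 1 batch label). Parental 786-O cells and the libraries labelled as sunitinib-resistant A498, under the same antibodies, are used for 2 comparisons at the end. The A498-labelled resistant cells were selected at 2 µM sunitinib, and the parental cells were not selected. No untreated library is analysed here, so each value is a difference between antibodies and not an effect of either one. Whether libraries of 1 group came from separate cultures is not stated, and p-values then measure only the spread between these libraries. Each resistant line is 1 selected population.

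Durvalumab, avelumab and atezolizumab are monoclonal antibodies that bind PD-L1 (the product of CD274), a ligand through which tumour cells and myeloid cells restrain T cells carrying PD-1. Avelumab keeps an unmodified IgG1 Fc region, which can engage Fc receptors on immune cells, while durvalumab carries Fc substitutions and atezolizumab lacks the Fc sugar, which lower that binding. In a culture of carcinoma cells alone there are no T cells for these antibodies to release, and what is read here is the transcriptome of the PD-L1-bearing cells themselves.

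Of 20 markers of clear cell carcinoma and tubule 19 passed the filter, at very different levels. PAX8, the renal lineage factor of this cancer, lay between 214 and 244 CPM (a gene's reads scaled to a common library total) over the 9 resistant libraries, VIM between 4270 and 4690 and KRT8 between 703 and 769, whereas CA9, a hypoxia target often high in this cancer, reached at most 0.0312 CPM. The proximal tubule genes LRP2, SLC17A3 and CUBN and the hypoxia target NDUFA4L2 were also low, with medians of 0.218, 0.404, 1.13 and 0.649 CPM. Of 18 leukocyte markers 5 passed the filter and 2 had no count in any library, and their summed level was 2.11 to 2.13 CPM under durvalumab and 1.42 to 2.24 CPM under avelumab. Of 12 Fc receptor and effector genes 3 passed the filter and 7 had no count. Their summed level was 31.1 to 33.9 CPM under durvalumab and 32.3 to 34.1 CPM under avelumab. TRIM21 lay between 29.2 and 34.5 CPM over the 9 resistant libraries, whereas FCGRT reached at most 0.639 CPM and FCGR2A 0.2 CPM. Endothelial and fibroblast markers summed to 13.6 to 14.7 CPM under durvalumab and 13.9 to 14.6 CPM under avelumab. The libraries held 38325859, 40834536 and 43610483 counts under durvalumab and 46878312, 51966798 and 40069643 under avelumab.

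Durvalumab replicate 1 stood apart from its group. It correlated with the other durvalumab libraries at a mean r of 0.9945 across genes, which are not independent replicates, and with the avelumab libraries at 0.9955; durvalumab replicate 3 had 0.9953 with its own group and 0.9955 with avelumab. Replicate 1 lay at 12.65 on the first principal component, which held 18.6% of the variance, against -14.95 and -5.67 for durvalumab replicates 2 and 3, and against 13.15, 11.21 and 13.18 for the avelumab libraries. Its root mean square distance from the rest of its group was 0.277 on the log2 scale, against 0.264 for durvalumab replicate 2 and 0.237 for replicate 3, and 0.215 to 0.268 for the libraries of the other antibodies. Durvalumab replicate 2 departed in another direction: it lay at -21.47 on the second component, the farthest of the 9 libraries. By chi-square per gene, its counts were at 15.14 to 21.58 from the avelumab libraries and at 9.23 to 15.59 from the atezolizumab libraries. Replicate 1 was at 5.15 to 6.23 from avelumab and at 6.18 to 8.76 from atezolizumab. Within the group, replicates 1 and 2 were at 17.97, replicates 1 and 3 at 8.165 and replicates 2 and 3 at 6.255. The label of replicate 1 was kept, and results that turn on it are given with and without it. What sets these libraries apart was not tested.

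**Figure D1:**
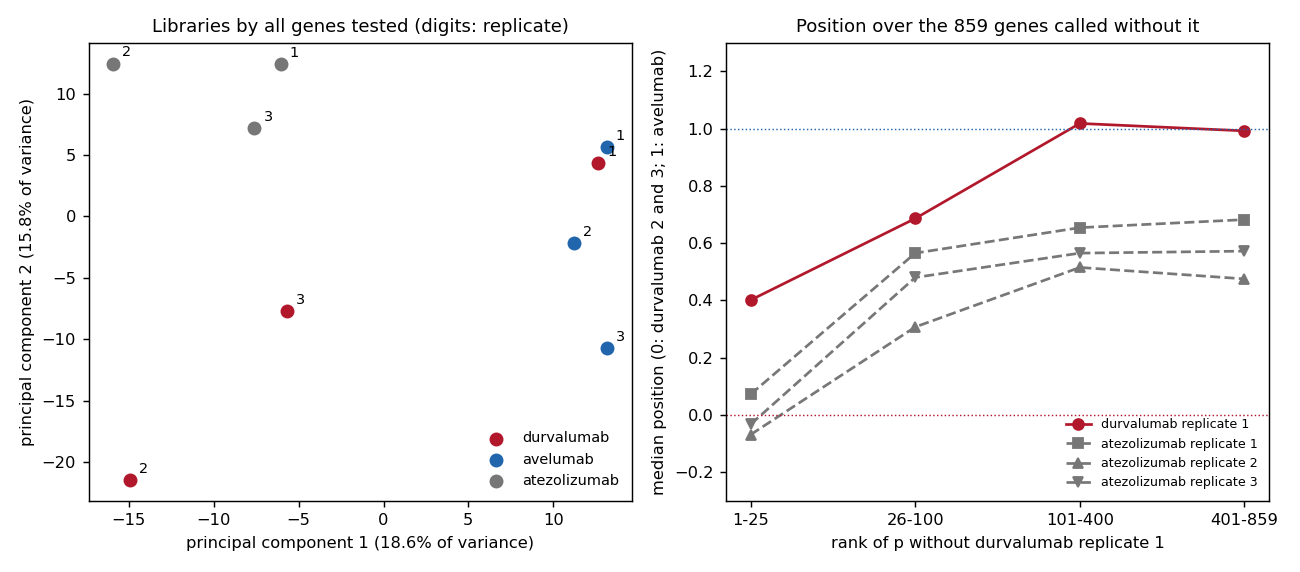
Left, the 9 libraries of resistant 786-O cells on the first 2 principal components of log2 CPM over all genes tested; right, the median position of single libraries over 859 genes called without durvalumab replicate 1, where 0 is the mean of durvalumab replicates 2 and 3 and 1 the avelumab mean, by rank of p. Durvalumab replicate 1 lies beside avelumab replicate 1 at left, and at right its median position is 0.401 over the 25 genes of lowest p and 1.02 over ranks 101 to 400.

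Between durvalumab and avelumab, 73 genes differed at an adjusted p under 0.05 in edgeR's quasi-likelihood test (0.387% of 18886), of which 65 were lower under durvalumab (0.344%) and 8 were higher (0.0424%). The genes that fell include EGR1, the retinoid enzymes DHRS3 and ALDH1A1, the guidance molecule SEMA5B and kidney cadherins, and those that rose include CXCL5, IL6 and tissue factor (F3). The changes were small. The median fold among genes called lower was 1.302 (1.148 to 3.005) and among genes called higher 1.25 (1.16 to 2.43); 14 genes changed by at least 1.5-fold and 5 by at least 2-fold. In all 73 the durvalumab and avelumab libraries did not overlap, a pattern seen in 2297 genes, or 12.2% of those tested (6.65% with durvalumab lower and 5.51% with durvalumab higher). The median change over all genes tested was 0.00 on the log2 scale. Of the 73, 22 genes passed in each of the 6 fits that left out 1 durvalumab or avelumab library, and all 22 were lower under durvalumab. None of the 8 genes called higher did. Without durvalumab replicate 1 the number called was 859 (4.55%), with 458 higher (2.43%) and 401 lower (2.12%), and it included all 73. Of the 65 genes called lower, 64 are protein coding, against 5 of the 8 called higher. In 15 of the 73, at least 10% of the exonic length overlaps another gene, whose reads may be shared since the strand setting of the counting is not stated.

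**Figure D2:**
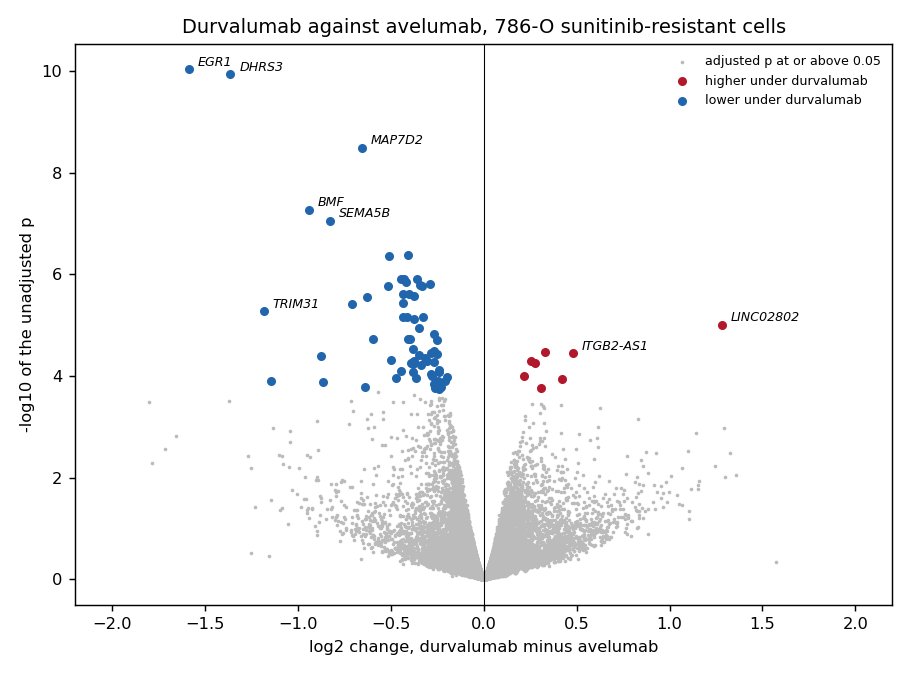
Log2 change (durvalumab minus avelumab, x axis) against -log10 of the unadjusted p (y axis) for the 18886 genes tested. The 65 blue points are genes called lower under durvalumab and the 8 red points genes called higher, and the grey points did not pass.

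EGR1, a zinc-finger transcription factor induced within minutes by growth factor signalling, showed the lowest log2 change of the genes called. It had 1.91, 1.64 and 1.95 CPM under durvalumab, against 6.10, 5.12 and 5.27 CPM under avelumab. The log2 change was -1.59 ± 0.13 (SE, adjusted p = 1.08e-06) and -1.60 without durvalumab replicate 1. All durvalumab libraries were below all avelumab libraries, as the rule for naming genes required. The atezolizumab libraries, at 2.00, 1.43 and 1.92 CPM, lay within or just outside the durvalumab range. EGR1 lies on chromosome 5 (GRCh38, 138465490 to 138469315, plus strand). Of 35 tested immediate early and ERK feedback genes EGR1 was the 1 gene called, beside 0.387% of all genes tested. In this list 16 genes had a positive and 19 a negative change, with a median of -0.01. Among the other members of at least 1 CPM, JUND had a log2 change of -0.29 ± 0.09 (adjusted p = 0.339), NR4A1 one of -0.21 ± 0.13 (adjusted p = 0.632) and DUSP6, a phosphatase that shuts ERK off, one of 0.20 ± 0.14 (adjusted p = 0.652).

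The promoter windows of EGR1 and MAP7D2, another of the genes that fell most steadily, are shown for the short motifs they hold. They run from 250 bases before to 50 after the RefSeq gene start (GRCh38.p14, chr5:138465229-138465528 on the plus strand and chrX:20116858-20117157 on the minus strand). Capitals mark 2 CArG boxes, the element read by serum response factor, in EGR1, and 3 copies of CACGTG, an E-box, in MAP7D2.
EGR1: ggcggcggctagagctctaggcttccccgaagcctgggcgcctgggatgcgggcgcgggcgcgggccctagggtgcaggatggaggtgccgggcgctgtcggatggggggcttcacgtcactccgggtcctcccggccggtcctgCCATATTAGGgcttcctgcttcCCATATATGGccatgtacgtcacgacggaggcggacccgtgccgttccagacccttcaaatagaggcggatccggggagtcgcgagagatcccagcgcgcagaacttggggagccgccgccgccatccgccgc
MAP7D2: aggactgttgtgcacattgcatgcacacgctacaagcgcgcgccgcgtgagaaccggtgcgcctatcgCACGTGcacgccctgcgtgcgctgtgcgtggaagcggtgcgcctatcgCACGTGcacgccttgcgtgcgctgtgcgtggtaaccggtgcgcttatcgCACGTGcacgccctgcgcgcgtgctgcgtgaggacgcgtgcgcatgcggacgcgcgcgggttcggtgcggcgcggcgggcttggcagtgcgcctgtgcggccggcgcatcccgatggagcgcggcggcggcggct
Over the 12059 tested genes with a window, 1.09% held a CArG box and 9.73% held CACGTG on either strand, and of 48 windows of genes called lower, 1 held the CArG box and 2 held CACGTG. Of 6 other motifs searched on both strands, TGTTTAC was in 3 of the 48 windows (2.39% of all), AGGTCA in 5 (9.98% of all) and GCGTGGGCG in 1 (1.24% of all). TGACTCA, TGACGTCA and TCACNCCAC were in none, against 3.47%, 3.15% and 1.14% of all windows. These are counts of letters in the windows.

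DHRS3 and ALDH1A1, both enzymes of retinoid metabolism, were lower under durvalumab. DHRS3, which reduces retinal back to retinol, had 6.29, 5.66 and 5.50 CPM under durvalumab, against 17.9, 13.0 and 13.8 CPM under avelumab, a log2 change of -1.36 ± 0.11 (SE, adjusted p = 1.08e-06). ALDH1A1, which oxidises retinal to retinoic acid, had 130.7, 142.7 and 143.6 CPM under durvalumab, against 213.6, 178.3 and 203 CPM under avelumab, a log2 change of -0.52 ± 0.07 (adjusted p = 0.00212). In both genes every durvalumab library was below every avelumab library, as the rule for naming genes required. Both passed in each fit that left out 1 library, and without durvalumab replicate 1 their changes were -1.41 and -0.46. The atezolizumab libraries had 4.66, 3.96 and 4.67 CPM of DHRS3 and 127.9, 111.5 and 131.1 CPM of ALDH1A1, in both cases below all avelumab libraries. CYP1B1, a cytochrome P450 that also metabolises oestrogens, changed by -0.44 ± 0.07 (adjusted p = 0.0053), with 13% of its exonic length shared with its antisense gene. DHRS3 lies on chromosome 1 (12567910 to 12617731, minus strand) and ALDH1A1 on chromosome 9 (72900662 to 73080442, minus strand).

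Among genes of at least 5 CPM, SEMA5B, PTGES, MAP7D2, YPEL2 and ITIH5 also fell under durvalumab and passed in each fit that left out 1 library. SEMA5B, a semaphorin that guides axons, had 5.04, 4.58 and 5.55 CPM under durvalumab, against 10.1, 7.85 and 8.96 CPM under avelumab (log2 change -0.83 ± 0.10, adjusted p = 0.000335). MAP7D2, a microtubule-binding protein, had 16.2, 15.4 and 15.1 CPM under durvalumab, against 25.0, 24.3 and 23.9 CPM under avelumab (-0.66 ± 0.07, adjusted p = 2.04e-05). In MAP7D2 the libraries of each group were close together and the groups far apart. PTGES, the inducible prostaglandin E synthase, had 2.95, 3.33 and 3.07 CPM under durvalumab, against 5.40, 4.66 and 5.24 CPM under avelumab (-0.71 ± 0.11, adjusted p = 0.00344). YPEL2, a member of the yippee family of small zinc-binding proteins, had 4.30, 3.77 and 4.04 CPM under durvalumab, against 6.38, 5.87 and 6.44 CPM under avelumab (-0.63 ± 0.10, adjusted p = 0.00278). ITIH5, of the inter-alpha-trypsin inhibitor heavy chains that bind hyaluronan, had 17.9, 15.1 and 17.5 CPM under durvalumab, against 25.3, 23.1 and 23.4 CPM under avelumab (-0.51 ± 0.07, adjusted p = 0.00117). None of the durvalumab libraries reached the lowest avelumab library in any of these genes, as the rule for naming them required. Of all genes tested, 6.65% had this pattern. They lie on chromosomes 3 (SEMA5B, 122909082 to 123028605, minus strand), X (MAP7D2, 20006713 to 20116917, minus strand), 9 (PTGES, 129738331 to 129753047, minus strand), 17 (YPEL2, 59331689 to 59401729, plus strand) and 10 (ITIH5, 7559270 to 7666998, minus strand).

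**Figure D3:**
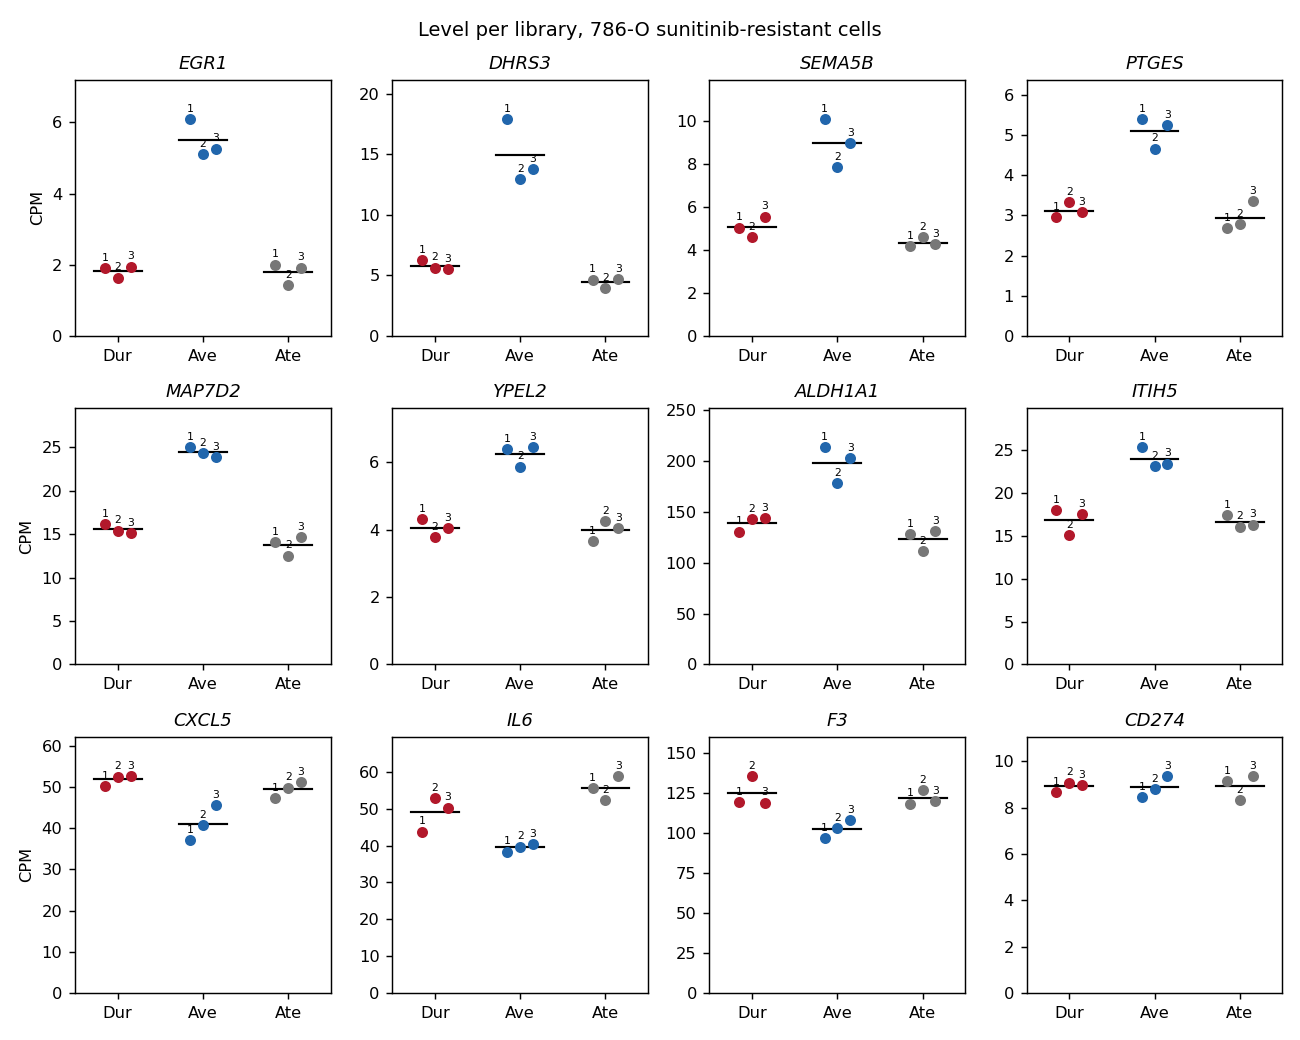
CPM (y axis, from 0) in each library of resistant 786-O cells under durvalumab (Dur), avelumab (Ave) and atezolizumab (Ate) for 12 genes; digits are replicates and bars are means of 3. In the first 8 panels the avelumab libraries lie above all durvalumab libraries, in CXCL5, IL6 and F3 below them, and CD274 lies between 8.32 and 9.38 in all 9.

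Genes of renal epithelium were among those lower under durvalumab. CDH16, the kidney-specific cadherin, had 6.001, 4.922 and 4.861 CPM under durvalumab, against 8.04, 6.83 and 7.34 CPM under avelumab (log2 change -0.50 ± 0.10, adjusted p = 0.0208). CDH6, the cadherin of proximal tubule precursors, had 23.46, 22.97 and 24.28 CPM under durvalumab, against 29.3, 30.2 and 33.6 CPM under avelumab (-0.40 ± 0.06, adjusted p = 0.00265). These were the 2 of 19 tested markers of clear cell carcinoma and tubule that passed, both lower, beside 0.344% of all genes called lower. The list had 7 markers of positive and 12 of negative change and a median of -0.05, against 0.00 over all genes. CLDN2, a cation-channel claudin of the proximal tubule, changed by -0.60 ± 0.11 (adjusted p = 0.0111), PDZK1, a scaffold of apical transporters, by -0.40 ± 0.07 (adjusted p = 0.0112) and ENPEP, the aminopeptidase that cleaves angiotensin, by -0.35 ± 0.07 (adjusted p = 0.0184). GAL3ST1, the sulfotransferase that makes sulfatide, had 97.7, 94.0 and 95.2 CPM under durvalumab, against 142.1, 113.4 and 134.1 CPM under avelumab. CD24, a surface glycoprotein of epithelia, had 216.9, 222.6 and 227 CPM under durvalumab, against 282.2, 262.5 and 308.3 CPM under avelumab. GAL3ST1, CD24 and CDH6 passed in each fit that left out 1 library, whereas CDH16 passed in 2 of the 6, CLDN2 in 3 and PDZK1 in 4. ENPEP did not pass in all of them. CLDN2, PDZK1, ENPEP, GAL3ST1 and CD24 were taken from the genes called and are not in the marker list. ELF3, an epithelial ETS factor, fell too, by 0.42 on the log2 scale, with 18.5% of its exonic length shared with an antisense gene. VASN, a transmembrane protein that binds TGF-beta, changed by -0.45 ± 0.09 (adjusted p = 0.0274) and passed in 2 of the 6. In bulk RNA, fewer cells of a kind and less RNA per cell cannot be told apart.

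TXNIP, BMF, TSC22D3 and FBXO32 were also lower under durvalumab. TXNIP, which binds thioredoxin and restrains glucose uptake, had 31.8, 33.2 and 33.1 CPM under durvalumab, against 42.7, 41.2 and 48.1 CPM under avelumab (log2 change -0.43 ± 0.06, adjusted p = 0.00212). It was the 1 gene called of 6 tested genes of the TXNIP and MondoA axis, a list named after it, beside 0.387% of all genes tested. The list median was -0.15, and ARRDC4, a relative of TXNIP, changed by -0.14 ± 0.09 (adjusted p = 0.632). BMF, a pro-apoptotic protein of the BCL2 family, had 2.74, 2.55 and 2.43 CPM under durvalumab, against 4.99, 4.52 and 5.29 CPM under avelumab (-0.94 ± 0.11, adjusted p = 0.000249). TSC22D3, the glucocorticoid-induced leucine zipper protein, and FBXO32, a ubiquitin ligase subunit known from muscle wasting, changed by -0.37 and -0.34. TXNIP, BMF and TSC22D3 passed in each leave-one-out fit. The durvalumab and avelumab libraries of these genes did not overlap, as in all 73 genes called.

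Of 13 tested genes of fatty acid synthesis, 2 fell under durvalumab, beside 0.344% of all genes tested. SCD, the desaturase that makes monounsaturated fatty acids, had 1017, 963.3 and 955.5 CPM under durvalumab, against 1200, 1153 and 1225 CPM under avelumab (log2 change -0.29 ± 0.04, adjusted p = 0.00212), and passed in each leave-one-out fit. SREBF1, the transcription factor of lipid synthesis genes, had 87.9, 69.1 and 77.2 CPM under durvalumab, against 107.8, 90.8 and 101.4 CPM under avelumab (-0.36 ± 0.07, adjusted p = 0.0331), and passed in 2 of the 6. The list had 2 positive and 11 negative changes and a median of -0.13. Without durvalumab replicate 1, 4 of its genes were called lower, beside 2.12% of all genes. FASN, the fatty acid synthase, had 852.7 CPM in durvalumab replicate 1 and 603.9 and 700.6 in the others, against 890, 822.9 and 789.2 CPM under avelumab, and its change was -0.22 ± 0.10 (adjusted p = 0.541) with it and -0.35 (adjusted p = 0.0116) without it. Of 25 cholesterol genes none was called, with 3 positive and 22 negative changes and a median of -0.08; INSIG1, which retains SREBP in the endoplasmic reticulum, had a log2 change of -0.23 ± 0.05 (adjusted p = 0.0661). LPIN1, a phosphatidate phosphatase of triglyceride synthesis, fell by 0.23.

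Of 28 tested targets of the hypoxia-inducible factors 2 fell, NDRG1, a stress-responsive protein, and hexokinase 2 (HK2), which starts glycolysis. Of all genes tested, 0.344% were called lower. NDRG1 had 894.3, 878.2 and 873.8 CPM under durvalumab, against 1197, 1054 and 1070 CPM under avelumab (log2 change -0.33 ± 0.05, adjusted p = 0.00212). HK2 had 32.9, 30.9 and 31.6 CPM under durvalumab, against 37.5, 36.7 and 38.5 CPM under avelumab (-0.25 ± 0.05, adjusted p = 0.0358), and passed in 1 of the 6 leave-one-out fits. The list had 9 positive and 19 negative changes and a median of -0.03. Among 27 genes around the tricarboxylic acid cycle, pyruvate carboxylase (PC) was the 1 gene called, lower by 0.39 on the log2 scale, while 21 of the 27 had a positive change. Of 26 genes of glycolysis and the pentose phosphate path, HK2 was the 1 gene called.

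Of 54 tested type I interferon genes, IFITM1, which blocks virus entry, was the 1 gene called, beside 0.387% of all genes, with 9.31, 8.69 and 10.2 CPM under durvalumab, against 14.6, 11.2 and 13.3 CPM under avelumab (log2 change -0.47 ± 0.10, adjusted p = 0.0331). Its exons overlap those of its close relative IFITM2 over 32.5% of their length, and it passed in 2 of the 6 leave-one-out fits. The list had 14 positive and 40 negative changes and a median of -0.04; IFI6 changed by -0.16 ± 0.06 (adjusted p = 0.383). None of 21 interferon-gamma response genes was called (median 0.00), the nearest being APOL1, the trypanosome lytic factor, with a change of -0.19 ± 0.05 (adjusted p = 0.111).

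PD-L1 itself, the target of these antibodies, did not differ detectably in RNA. CD274 had 8.69, 9.09 and 8.99 CPM under durvalumab, against 8.45, 8.81 and 9.38 CPM under avelumab, and the groups overlapped. Its log2 change was 0.00 ± 0.08, with a 95% interval of -0.16 to 0.17 (adjusted p = 0.99). CD274 lies on chromosome 9 (5450503 to 5470566, plus strand). None of 17 tested B7 family genes and PD-L1 regulators was called, nor any of 22 genes of MHC class I presentation, whose medians were 0.00 and 0.02.

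The few genes higher under durvalumab include secreted inflammatory factors. CXCL5, a neutrophil-attracting chemokine, had 50.3, 52.5 and 52.7 CPM under durvalumab, against 37.1, 40.7 and 45.5 CPM under avelumab (log2 change 0.33 ± 0.06, adjusted p = 0.0172). IL6, the acute-phase cytokine, had 43.81, 53.02 and 50.31 CPM under durvalumab, against 38.4, 39.7 and 40.5 CPM under avelumab (0.31 ± 0.07, adjusted p = 0.0453), with 20.7% of its exonic length overlapped by an antisense gene. These were the 2 of 27 tested NF-kappaB cytokines and feedback genes that rose, beside 0.0424% of all genes. Of the 27, 24 had a positive change and the median was 0.14, against 0.00 over all genes. Relative to the avelumab mean, the list median was 0.11, 0.03 and 0.12 in durvalumab replicates 1, 2 and 3 on the log2 scale. Avelumab replicates stood at -0.02, -0.01 and 0.04, so durvalumab replicate 2 lay within the avelumab range. CXCL8, the interleukin-8 gene, had 43.9, 52.6 and 57.1 CPM under durvalumab, against 35.0, 38.1 and 42.1 CPM under avelumab, with a change of 0.41 ± 0.09 (adjusted p = 0.0739) that passed without durvalumab replicate 1 (0.52, adjusted p = 0.000742). CCL20 and CXCL1, also chemokines, changed by 0.42 ± 0.14 and 0.35 ± 0.13 (adjusted p = 0.325 and 0.371). CXCL5 passed in 2 and IL6 in 1 of the 6 leave-one-out fits.

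F3, the tissue factor that starts coagulation, had 119.4, 135.9 and 119.1 CPM under durvalumab, against 97.0, 103.3 and 107.9 CPM under avelumab (log2 change 0.28 ± 0.05, adjusted p = 0.0211). IL7R, the receptor chain for interleukin 7, had 121.2, 129.1 and 123.1 CPM under durvalumab, against 96.9, 106.7 and 108.6 CPM under avelumab (0.25 ± 0.05, adjusted p = 0.0208). The groups did not overlap in these genes, as in all 73 called, yet F3 passed in 2 and IL7R in 3 of the 6 leave-one-out fits. F3 is also a YAP-TEAD target. In that list of 21 tested genes F3 rose and IGFBP3, which binds insulin-like growth factors, fell, with a median of -0.01. Of all genes tested, 0.0424% were called higher and 0.344% lower. A further 3 genes called higher are noncoding or a pseudogene in the annotation: ITGB2-AS1 (0.48, 13.5% of its exonic length shared with ITGB2), ZNF731P (0.42, 12% shared) and LINC02802 (1.28). LINC02802 had 3.18, 1.67 and 2.04 CPM under durvalumab, against 0.789, 0.847 and 1.198 CPM under avelumab, with the highest value in durvalumab replicate 1. CXCL5 lies on chromosome 4 (73995642 to 73998779), IL6 on chromosome 7 (22725884 to 22732002) and F3 on chromosome 1 (94529225 to 94541800).

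Ribosomal protein, respiratory chain and mitochondrial transcripts leaned higher under durvalumab, more so without durvalumab replicate 1. Of 75 tested cytosolic ribosomal protein genes, which encode the translation machinery, none was called although 71 had a positive change (median 0.08). Without durvalumab replicate 1, 40 were called higher, beside 2.43% of all genes, and the median was 0.17. Relative to the avelumab mean, the median ribosomal protein gene stood at -0.11 in durvalumab replicate 1 and at 0.22 and 0.11 in replicates 2 and 3 on the log2 scale, so that replicate 1 lay on the other side of the avelumab mean. RPL24, for example, had 254.7, 340.4 and 303.4 CPM under durvalumab, against 256, 271.7 and 264.6 CPM under avelumab. Of 62 nuclear-encoded respiratory chain genes 57 had a positive change (median 0.07) and none was called, against 22 called higher without that library. All 13 mitochondrially encoded transcripts had a positive change (median 0.21) and none was called; here durvalumab replicate 1 stood at 0.10 and replicates 2 and 3 at 0.32 and 0.21. As a share of all counts, mitochondrial transcripts made up 1.97%, 2.32% and 2.13% under durvalumab, against 1.75%, 1.98% and 1.81% under avelumab (exact two-sided permutation test, p = 0.2, adjusted p = 0.833 over 5 classes of transcripts, where 3 against 3 libraries cannot go below 0.1). Ribosomal protein transcripts made up 3.06%, 3.71% and 3.45% under durvalumab, against 3.21%, 3.28% and 3.20% under avelumab (exact p = 0.4, adjusted p = 0.833). The part of these shares in the gene results was not tested.

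Genes of DNA replication and mitosis leaned the same way, with 29 of 37 and 25 of 33 positive changes, medians of 0.05 each and no gene called. Without durvalumab replicate 1, 3 and 4 of them were called higher, beside 2.43% of all genes. Relative to the avelumab mean, durvalumab replicates 1, 2 and 3 stood at -0.028, 0.113 and 0.065 for replication and at -0.015, 0.125 and 0.062 for mitosis. CCNB1, the mitotic cyclin B, for instance had 138.5, 166.9 and 150.1 CPM under durvalumab, against 137.4, 139.3 and 138.2 CPM under avelumab. MKI67, the mitosis gene of lowest change (-0.18 ± 0.12, not called), went the other way. It had 566, 410.1 and 488.1 CPM under durvalumab, against 560, 575.2 and 516.5 CPM under avelumab. Of 34 matrix and adhesion genes 1 rose and 1, CDH6, fell, beside 0.0424% and 0.344% of all genes tested. Fibronectin (FN1) had 2188, 1686 and 2036 CPM under durvalumab, against 2489, 2402 and 2484 CPM under avelumab, a change of -0.32 ± 0.08 that did not pass (adjusted p = 0.157). No gene was called in the lists for lysosome (50 tested, 34 negative), p53 targets (27, 18 negative), ATF4 targets (41, 25 negative), NRF2 targets (29, 16 negative), the unfolded protein response (19, 8 negative), heat shock chaperones (15, 3 negative), splicing factors (22, 3 negative), BMP and TGF-beta targets (20, 11 negative) or the kinases and ligands that sunitinib acts on (11, 5 negative). Nor was any called among metallothioneins (6 tested), iron handling genes (11), replication-dependent histones (14), serum response factor targets of the cytoskeleton (16), nuclear-retained RNAs (13), Fc receptors and effector genes (3), leukocyte markers (5) or endothelial and fibroblast markers (7).

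**Figure D4:**
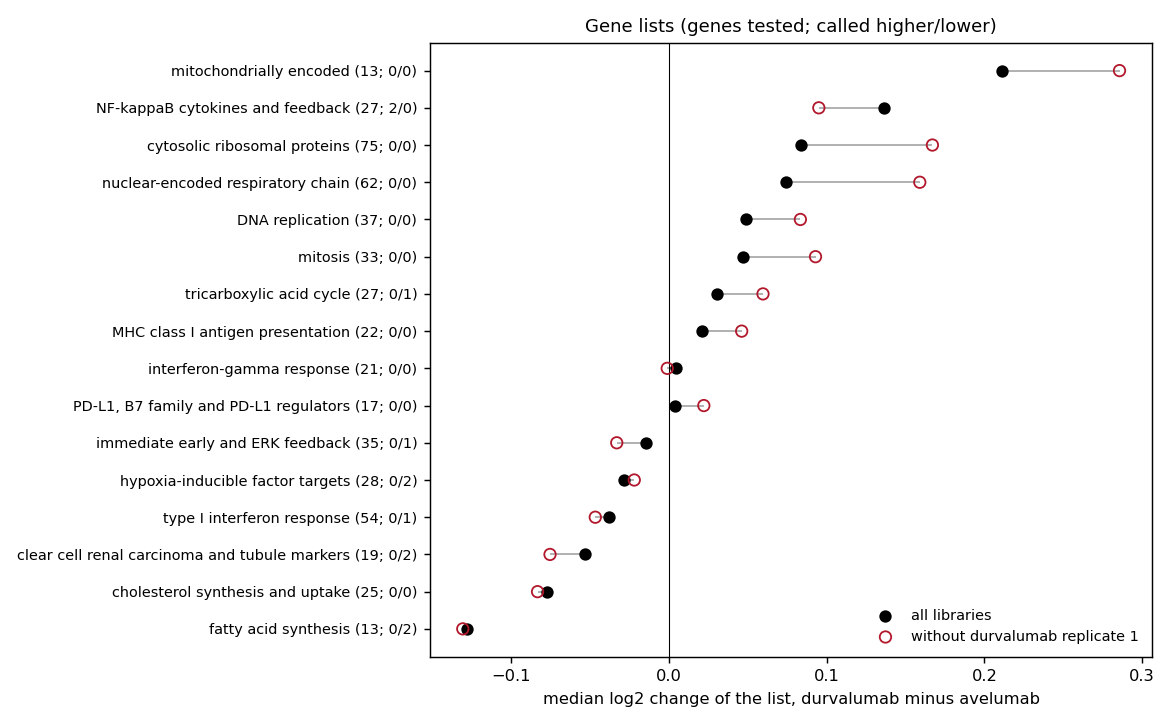
Median log2 change, durvalumab minus avelumab (x axis), of 16 gene lists with all libraries (filled) and without durvalumab replicate 1 (open); after each name stand the number of genes tested and the numbers called higher and lower. The ribosomal protein median is 0.08 with that library and 0.17 without it, while that of fatty acid synthesis is -0.13 in both and that of the NF-kappaB list 0.14 with it and 0.10 without it.

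The position of durvalumab replicate 1 was described over genes that it did not help to choose. These genes were chosen because durvalumab replicates 2 and 3 differed from avelumab, and the same libraries set the scale below. A library outside that choice can lie above 0 for this reason alone. The atezolizumab libraries had median positions of 0.65, 0.46 and 0.55 over the same genes, so the values for durvalumab replicate 1 are a description. Over the 859 genes called without it, its median position was 0.96 on a scale where 0 is the mean of the other durvalumab libraries and 1 the avelumab mean (quartiles 0.60 and 1.24), and it lay nearer avelumab in 686 of them (79.9%). Over the 25 genes of lowest p its median position was 0.40, with 12 of 25 nearer avelumab. When each other library was left out in turn in the same way, durvalumab replicates 2 and 3 had median positions of -0.10 (36 genes) and 0.11 (27 genes), and avelumab replicates 1, 2 and 3 had 1.07 (33 genes), 0.74 (50 genes) and 0.92 (39 genes). Those sets are far smaller than the 859 genes and were chosen with durvalumab replicate 1 in the fit. Their positions are therefore not on a like footing with 0.96. SLC5A3, a sodium-driven myo-inositol transporter, is an example of a durvalumab replicate 1 value near avelumab. It had 39.2 CPM in that library, 26.8 and 28.1 CPM in the other durvalumab libraries and 35.9, 37.3 and 39.3 CPM under avelumab. Its change was -0.27 (adjusted p = 0.478) with that library and -0.45 (adjusted p = 0.000742) without it. ADAMTS5, an aggrecan-cleaving protease, and NBEA, a vesicle transport protein, had 15.9 and 19.6 CPM there, against 16.9 to 19.1 CPM of ADAMTS5 and 19.9 to 21.5 CPM of NBEA under avelumab. These 3 genes, and FASN, RPL24 and CCNB1 above, were chosen as examples after their values were seen.

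Under atezolizumab the genes called lower stood near their durvalumab level. In 64 of the 65 the atezolizumab mean was nearer to durvalumab than to avelumab, as in 60.1% of all tested genes with a negative change. In 63 of them all atezolizumab libraries were below all avelumab libraries, a pattern found in 14.3% of all genes tested. Of the 8 genes called higher, 6 had an atezolizumab mean nearer to durvalumab, as in 42.2% of all tested genes with a positive change. For instance, MAP7D2 had 14.1, 12.5 and 14.6 CPM and SEMA5B 4.18, 4.58 and 4.25 CPM under atezolizumab. These genes were chosen in part by their avelumab levels, which both contrasts would share, so the counts are a description. In the 859 genes called without durvalumab replicate 1, the atezolizumab libraries had median positions of 0.65, 0.46 and 0.55, between durvalumab and avelumab, and over the 25 genes of lowest p of 0.07, -0.07 and -0.03.

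In parental 786-O cells the same contrast gave no call among 17577 genes (0%), with a smallest adjusted p of 0.136 and 1899 genes at an unadjusted p under 0.05; DESeq2 called 13 higher and 15 lower there. Of the 71 called genes with a value there, 44 changed in the same direction. The median change of the genes called lower was -0.38 in resistant, -0.06 in the A498-labelled resistant and -0.05 in parental 786-O cells, and that of genes called higher was 0.32, 0.09 and 0.09. These genes were chosen in resistant 786-O cells, so their smaller medians elsewhere are a description. The difference itself was tested gene by gene, in 1 model over both cell states, each with its own batch label. It passed for 9 of 19369 genes between resistant and parental cells (0.0465%), 1 more positive (0.00516%) and 8 more negative (0.0413%) in resistant cells, and 7 of them were among the 73. Without durvalumab replicate 1 of the resistant cells, 313 genes had a more positive and 198 a more negative change in resistant than in parental cells, against 1 and 8 with it.

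MAP7D2 differed most clearly between the cell states, with a change of -0.66 in resistant and 0.14 in parental cells (difference -0.80 ± 0.10 SE, adjusted p = 0.000133). In parental cells it had 13.7, 14.8 and 13.5 CPM under durvalumab, against 12.1, 13.6 and 11.9 CPM under avelumab. ALDH1A1 had 121.1, 125.5 and 126.6 CPM under durvalumab, against 117.5, 117.1 and 125.2 CPM under avelumab in parental cells, and the difference of its changes was -0.56 ± 0.09 (adjusted p = 0.00715). PDZK1 and PCSK5, a proprotein convertase, differed by -0.60 ± 0.09 and -0.58 ± 0.09 (adjusted p = 0.00146 and 0.00144). HMGA1, an architectural chromatin protein, was the 1 gene whose change was more positive in resistant cells, at 0.16 in resistant and -0.46 in parental cells (difference 0.61 ± 0.11, adjusted p = 0.0479). EGR1 did not differ detectably in this way: it had 4.59, 12.8 and 11.7 CPM under durvalumab, against 13.1, 25.1 and 17.4 CPM under avelumab in parental cells, a change of -0.99 ± 0.39, and the changes differed by -0.60 ± 0.52 (adjusted p = 0.752).

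Against the libraries labelled sunitinib-resistant A498, whose line is in doubt, the difference passed for 10 of 19196 genes (0.0521%), all more negative in resistant 786-O and all among the 73. Within those libraries the same contrast called 2 genes, 1 of them among the 73 and of the same sign. Of the 73, all tested there, 52 changed in the same direction. The averaged log2 CPM of those libraries correlated with resistant 786-O at r = 0.9885 and with the libraries labelled parental A498 at r = 0.8805, over 16279 genes that share these libraries and are no replicates. DHRS3 had 33.2, 35.8 and 33.3 CPM under durvalumab, against 34.3, 38.0 and 35.8 CPM under avelumab in those libraries, and its changes differed by -1.28 ± 0.13 (adjusted p = 4.07e-06). EGR1 had 7.47, 8.21 and 7.72 CPM under durvalumab, against 10.67, 11.04 and 11.53 CPM under avelumab there, so that it was lower under durvalumab in each library but by less, with a difference of -1.07 ± 0.15 (adjusted p = 0.00026). TXNIP had 39.55, 41.2 and 37.7 CPM under durvalumab, against 36, 35.27 and 36.46 CPM under avelumab there, the opposite order from resistant 786-O (difference -0.56 ± 0.08, adjusted p = 0.000624). MAP7D2 was the 1 gene past the threshold in both comparisons (difference -0.67 ± 0.09 from the A498-labelled libraries, adjusted p = 0.00026).

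**Figure D5:**
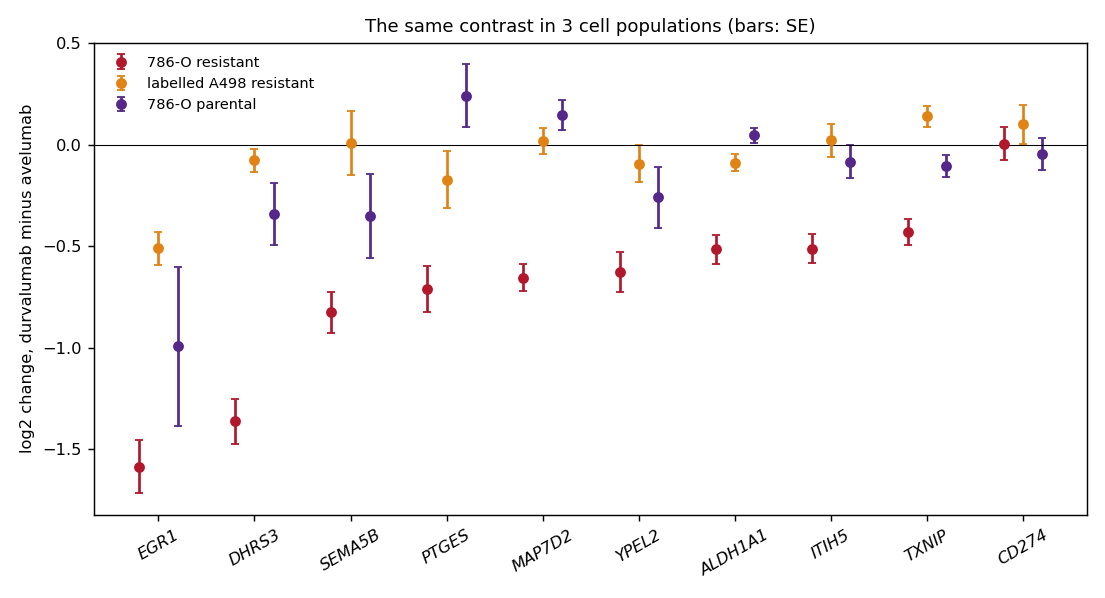
Log2 change, durvalumab minus avelumab (y axis), with its standard error, of 10 genes in resistant 786-O, A498-labelled resistant and parental 786-O cells (3 libraries per antibody in each). MAP7D2 stands at -0.66, 0.02 and 0.14 and CD274 at 0.00, 0.10 and -0.05, in the same order.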

How the data were processed

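RNA was extracted with a QIAGEN RNeasy kit and polyadenylated RNA was made into stranded libraries, per the labels' protocols. The submitters' processing notes name featureCounts 1.6.3 for counting, HISAT2 2.1.0, bcl2fastq 2.19.0 and Trimmomatic 0.36.6, and the builds GRCh38 and hg38; the strand setting of the counting is not given in the sources used here. The authors deposited raw read counts per gene for all 36 libraries. Of their 45478 identifiers 45283 were paired with a symbol and 43799 were found in GENCODE 29, from which coordinates and exonic overlaps were taken.

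Counts of the 9 libraries of resistant 786-O cells were fitted together with edgeR 4.0.16 (R 4.3.3), with TMM scaling, filterByExpr (minimum count 10, minimum total 15), group means and a robust quasi-likelihood F test of durvalumab minus avelumab. P-values were adjusted over all genes tested by the Benjamini-Hochberg method, with a threshold of 0.05. Standard errors were derived from the log2 change and its F value. CPM are counts scaled by the raw total of each library. Differences between cell states were tested as interactions over 18 libraries. The test was tried on simulated data with this comparison's means and library sizes (18886 genes): it called 71% of genes changed 1.5-fold, 85% of those changed 2-fold and 0.0535% of unchanged genes. Apart from size, simulated libraries of a group differed only by independent noise per gene. These rates do not cover a library that departs as a whole. The common biological coefficient of variation was 0.0516. No pair of libraries agreed within counting noise. Alternatives used DESeq2 1.42.0 and limma 3.58.1, other scalings and filters, and each library left out.

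Named genes had a symbol, an adjusted p under 0.05, groups that did not overlap and a mean of 5 CPM or more in 1 of them: the 12 highest and 12 lowest changes, and the 8 highest and 8 lowest of those passing in each leave-one-out fit. To these were added up to 4 members of at least 1 CPM per list, for each interaction the 4 genes with the smallest p in either direction, and CD274. Other called genes named in the text were chosen after their values were seen. The comparison and the gene lists were chosen with earlier results of these data known. A few genes that met these rules are not reported here. The replicate numbers were not used to pair libraries.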

Additional observations from a re-analysis of the deposited data

Results flagged for a closer look

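In 9 genes the change between durvalumab and avelumab differed between resistant and parental 786-O cells in the edgeR interaction test, each cell state carrying its own batch label, so that state and batch cannot be told apart; 8 of them are given here. The difference, resistant minus parental on the log2 scale, was -0.80 ± 0.10 for MAP7D2, -0.60 ± 0.09 for PDZK1, -0.58 ± 0.09 for PCSK5 and -0.56 ± 0.09 for ALDH1A1 (SE). It was -0.35 ± 0.07 for ZNF395 (adjusted p = 0.0437), with 34.9% of its exonic length shared with FBXO16. SYNPO, an actin-binding protein of podocytes, had -0.32 ± 0.06 (adjusted p = 0.0437). HMGCS1, a cholesterol synthesis enzyme with 15% of its exonic length shared with another gene, had -0.31 ± 0.06 (adjusted p = 0.0371), from a change of -0.13 in resistant and 0.19 in parental cells. HMGA1 had 0.61 ± 0.11.

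In 10 genes the change differed from that in the libraries labelled sunitinib-resistant A498. Those libraries differ from resistant 786-O in the line on the label and in the sunitinib of selection (2 against 4 µM), which cannot be told apart. The difference was -1.28 ± 0.13 for DHRS3, -1.07 ± 0.15 for EGR1, -0.67 ± 0.09 for MAP7D2 and -0.56 ± 0.08 for TXNIP. KMO, the kynurenine hydroxylase with 28.4% of its exonic length shared, had -0.53 ± 0.11 (adjusted p = 0.0365) and TSC22D3 -0.49 ± 0.09 (adjusted p = 0.0328). ACP5, tartrate-resistant acid phosphatase, had -0.48 ± 0.08 (adjusted p = 0.00153) and the noncoding MIR3667HG -0.45 ± 0.08 (adjusted p = 0.0131). IGFBP3 had -0.33 ± 0.07 (adjusted p = 0.0394) and NF2, the merlin tumour suppressor, -0.32 ± 0.06 (adjusted p = 0.0328).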

How the results depend on the processing

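The counts of genes called higher and lower (8 and 65) varied widely. Leaving out 1 library at a time gave 1 to 458 higher and 25 to 401 lower, the highest values being those without durvalumab replicate 1; in the fit of 6 libraries its omission gave 219 and 285. Other settings gave 59 and 190 with no filter, 4 and 42 with a filter at 10 CPM, 18 and 98 by DESeq2, 254 and 429 by voom with sample quality weights, 0 and 5 for changes above 1.2-fold, 5 and 41 with 6 libraries and 44 and 197 with all 36. Genes called higher made up 11% of calls, against 23.7% with no filter, 37.2% by voom and 53.3% without durvalumab replicate 1. Of 29 named genes called, 29 were called under RLE and upper quartile scaling, no filter and DESeq2, 24 with library totals only, 19 with 6 libraries and 4 above 1.2-fold. Same-numbered durvalumab and avelumab libraries correlated in their deviations at 0.194, 0.059 and 0.014, and differently numbered ones at -0.157 to 0.11. Whether the replicate numbers mark pairs was not tested. With the replicate block the counts were 40 higher and 116 lower, and all 73 genes stayed called.

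In parental 786-O cells (0 and 0 called) the counts were 100 and 199 with no filter, 13 and 15 by DESeq2, and 0 to 87 and 0 to 138 with 1 library left out. The interaction with parental cells (1 and 8) had 3 and 14 under RLE, 59 and 89 with no filter, 9 and 22 with the replicate block, 22 and 44 by DESeq2, and 0 to 313 and 4 to 198 with 1 library left out. The interaction with the A498-labelled libraries (0 and 10) had 1 higher under RLE, 31 and 37 with no filter, 3 and 24 with the replicate block, 4 and 24 by DESeq2, and 0 to 5 and 5 to 22 with 1 library left out. The causes of these shifts were not tested. The 29 named genes called kept their sign in each of these fits of resistant 786-O cells that gave a value (21 of them with the filter at 10 CPM). Of the 73 genes, 7 were under 5 CPM in both groups, where counting error is larger.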

Other observations

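Gene lists assembled after these values were seen, and so given as counts with no test, leaned lower under durvalumab. Of 16 tested genes of retinoid metabolism and receptors, 13 had a negative change, with a median of -0.15, and DHRS3, ALDH1A1 and CYP1B1 were called lower. Of 20 tested FOXO factors and targets, 18 had a negative change, with a median of -0.17, and TXNIP, FBXO32 and TSC22D3 were called lower. Without durvalumab replicate 1, 4 and 7 genes of these lists were called lower and none higher. Of all genes tested, 0.344% were called lower with that library and 2.12% without it.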
